A study of Mus musculus with 10 samples.

Results

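The genes described here are 10 regulators and markers of the Schwann cell lineage: the transcription factor genes Sox10, Foxd3, Sox2, Pou3f1 and Egr2, the receptor genes Ngfr and Erbb3, and the marker genes Cdh19, S100b and Fabp7. They were picked by symbol from the 18193 genes that the arrays measured with probe sets naming 1 gene. All 10 were found, through 18 probe sets, and each gene is represented by its brightest probe set, judged by the mean of the 10 arrays. Total RNA was taken from lower incisor dental mesenchyme of 5 wild-type C57BL/6J mice at postnatal day 60. The denervated group holds 5 arrays from the incisors on the side where the inferior alveolar nerve, which carries sensation from the lower teeth, had been cut out 2 weeks earlier. The contralateral group holds 5 arrays from the incisors of the other side of the operated mice, which had no surgery on that nerve, and arrays of equal number were taken as the 2 sides of 1 mouse. The samples hold no sham surgery, so effects of nerve loss and of the surgery cannot be told apart.

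Schwann cells are the glia of peripheral nerves. They descend from the neural crest, pass through a precursor and an immature stage, and then either wrap a large axon in myelin or hold bundles of small axons without myelin. SOX10 is needed at every stage, and with POU3F1 it turns on EGR2, the factor that drives myelin genes, while neuregulin from axons signals through ERBB3 for their growth and survival. After a nerve is cut, Schwann cells beyond the cut lose myelin gene expression and return to a state that has features of immature cells, such as NGFR, SOX2 and the lipid-binding protein FABP7. The incisor pulp receives its sensory fibres and their Schwann cells from the inferior alveolar nerve. Some of these genes have other sources in a tooth: SOX2 marks stem cells of the incisor epithelium, and NGFR occurs in neural crest-derived mesenchyme.

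Fabp7 and S100b, both used as Schwann cell markers and both on mouse chromosome 10, had unlike patterns across the mice, and the 250 bases before their annotated transcript starts are shown for that reason. The sequences are RefSeq's, build GRCm38.p6, plus strand, at chr10:57784673-57784922 for Fabp7 and chr10:76253586-76253835 for S100b. Capitals mark matches on either strand to the letters ACAANG, a core of Sox factor sites, or GTGGGNG, a core of Egr factor sites.
Fabp7: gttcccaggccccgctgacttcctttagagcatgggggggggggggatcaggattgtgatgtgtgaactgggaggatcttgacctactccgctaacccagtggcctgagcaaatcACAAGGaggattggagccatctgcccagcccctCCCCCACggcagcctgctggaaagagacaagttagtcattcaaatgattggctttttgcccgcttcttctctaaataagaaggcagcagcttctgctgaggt
S100b: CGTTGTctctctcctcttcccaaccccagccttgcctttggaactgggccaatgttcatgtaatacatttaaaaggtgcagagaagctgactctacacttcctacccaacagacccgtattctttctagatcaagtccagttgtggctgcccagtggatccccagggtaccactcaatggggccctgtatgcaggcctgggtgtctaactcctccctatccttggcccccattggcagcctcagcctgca
The Fabp7 window holds 1 Sox match and 1 Egr match, which do not overlap, and the S100b window holds 1 Sox match and 0 Egr matches. The letters ATGCAAA, part of the octamer bound by POU factors, are in neither. Promoter windows were supplied for 6 of the 10 genes, 10 windows in all since Egr2 has 5 that partly overlap. Of these 10 windows 4 hold ACAANG, 2 GTGGGNG and 4 ATGCAAA, the last in 2 genes, Egr2 and Sox2. Of all 32851 supplied windows of this length, 36.3% hold ACAANG, 28.1% GTGGGNG and 4.12% ATGCAAA. A match is a description of the letters only.

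All values below are log2 intensities as deposited, on which array medians lay between 1.48 and 1.54. No detection calls are given, so a value near or below 2 cannot be told from background and a difference from such a value has no certain size, and 40.7% of all genes had a mean below 2. Of the 10 genes 5 had such a mean (Sox10, Egr2, Pou3f1, S100b and Foxd3), and 1, Ngfr, had a mean of at least 4. Levels of different probe sets are not compared with each other. In a bulk sample, fewer cells of a type and less RNA per cell cannot be told apart.

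The comparison asked whether Schwann cell regulators and immature markers differ between denervated and contralateral incisor mesenchyme. In each of the 10 genes the denervated mean was the higher one, with differences from 0.11 (Foxd3) to 1.25 (Fabp7) and a median of 0.41; over all genes the median was 0.02, and 55.8% were higher. None of the 10 passed limma's test with Benjamini-Hochberg adjustment over 18193 genes at 0.05 (adjusted p 0.790 to 0.880), nor in the fit blocked on mouse (adjusted p 0.259 to 0.796). The background was 0% of genes in both fits. At an unadjusted p under 0.05 there was 1 of the 10, Fabp7, against 4.1% of all genes higher, and with the mouse as a block 3, Fabp7, Cdh19 and Egr2, against 6.99%. Differences are denervated minus contralateral on the log2 scale, with limma's standard errors and n = 5 arrays per group.

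Fabp7 and 8 of the other genes had unlike patterns, and Sox2 had neither. Fabp7 was higher in the denervated incisor of every mouse, and its groups did not overlap. Of the other 9 genes, 8 were highest of all 10 arrays on denervated array 2, where 21.2% of all genes had their highest value; Sox2 was the exception. Denervated array 2 lay at least 1 log2 unit above every other array in 5 of the 10 genes (Sox10, Pou3f1, Cdh19, S100b and Erbb3), against 0.231% of all genes. Denervated array 3 was second in 5 of the 8 (Sox10, Egr2, Pou3f1, Cdh19 and S100b); 7.63% of all genes had this order. Without denervated arrays 2 and 3, an alternative chosen after seeing the data, 6 of the 10 genes were higher, against 49.1% of all genes, and their median difference was 0.09.

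**Figure D1:**
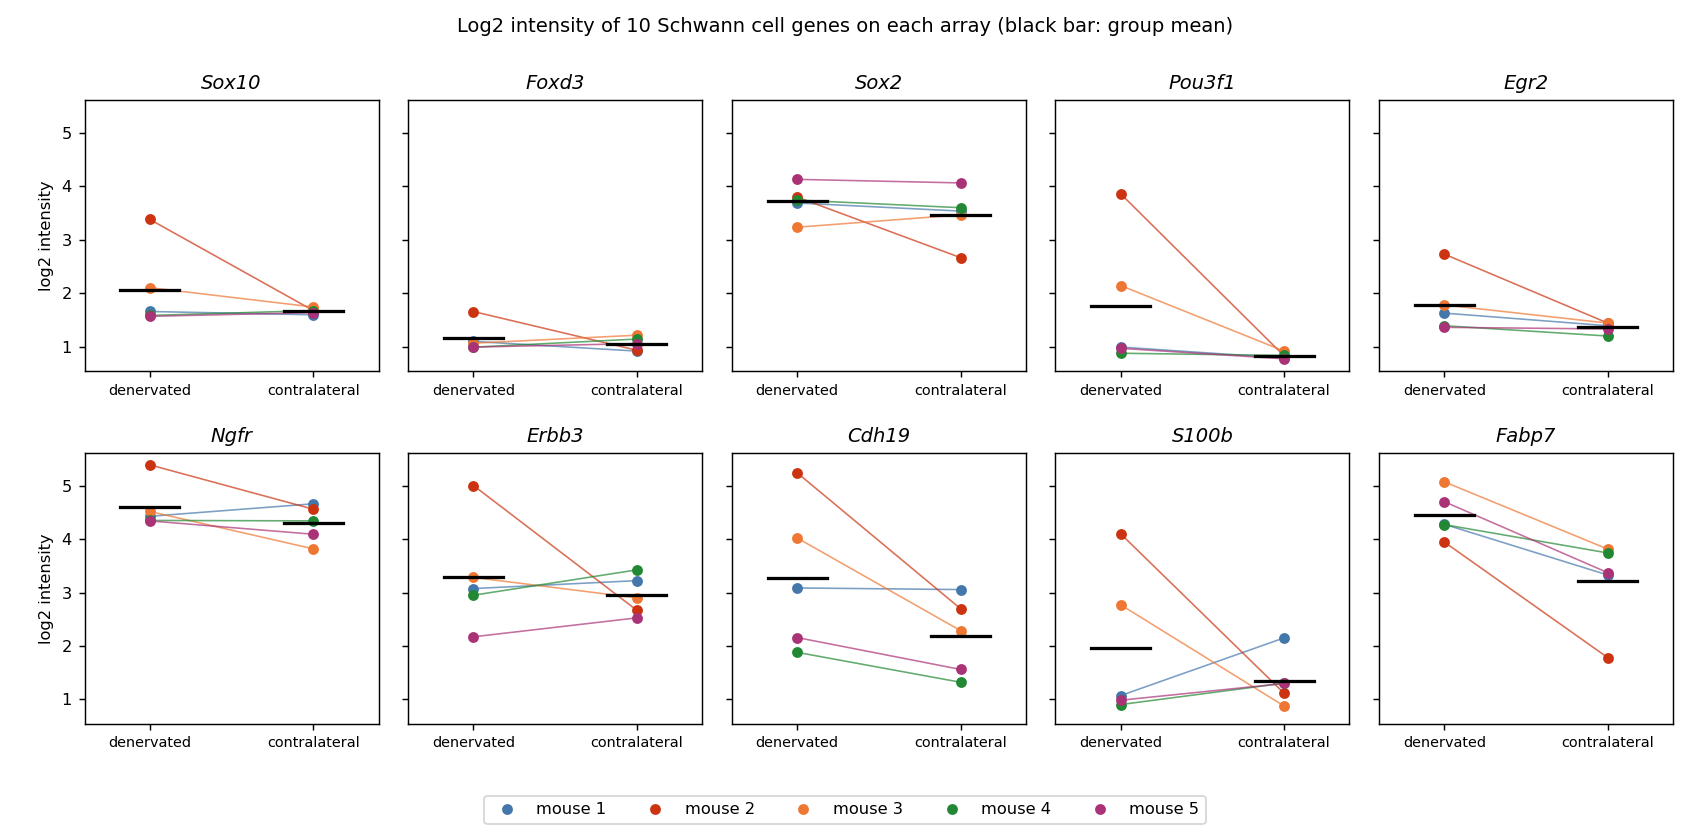
Log2 intensity (vertical axis) of each of the 10 genes on the 5 denervated arrays (left in each panel) and the 5 contralateral arrays (right). Points are arrays, lines join the incisors of 1 mouse, and black bars are group means. Denervated array 2 is the highest point in 8 panels, and Fabp7 is the panel whose groups do not overlap, with 3.95 to 5.07 in denervated and 1.78 to 3.81 in contralateral incisors; heights are not comparable between panels.

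Fabp7, a brain-type fatty acid-binding protein of immature Schwann cells and other glia, had 4.28, 3.95, 5.07, 4.27 and 4.70 in the denervated incisors of mice 1 to 5, against 3.33, 1.78, 3.81, 3.74 and 3.37 in their contralateral incisors. The lowest denervated value, that of mouse 2, was above the highest contralateral value, that of mouse 3. Such a separation with higher denervated values occurred in 0.528% of all genes (96 of 18193). The difference was 1.25 ± 0.36 (95% confidence interval 0.46 to 2.04), a 2.37-fold difference of geometric means. The interval of the log2 difference was 0.78 to 1.72 in the fit blocked on mouse. It stood at rank 4 among all 18193 differences, from the highest down, and ranked 95 by unadjusted p (0.00509), with an adjusted p of 0.790. Within mice 1 to 5 it was 0.95, 2.17, 1.26, 0.53 and 1.33. The contralateral value of mouse 2, 1.78, stood apart from the other contralateral values and lay in the background range. The fold difference and the difference within mouse 2 therefore have no certain size. Without that value the fitted difference was 0.89. Without denervated arrays 2 and 3 it was 1.21 ± 0.40, but that setting drops the lowest denervated value and keeps the contralateral value of 1.78. With both incisors of mice 2 and 3 left out, the blocked fit gave 0.94 ± 0.15. A single probe set naming 1 gene measures Fabp7, so no second one could serve as a check.

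Among the regulators, Sox10, the factor that specifies and maintains the lineage, had 1.66, 3.38, 2.10, 1.58 and 1.57 in the denervated incisors of mice 1 to 5, against 1.59, 1.67, 1.74, 1.67 and 1.64 in the contralateral ones. The contralateral values lay within a narrow band (SD 0.05), all of it in the background range. Above the band were 2 denervated arrays. Another 2, at 1.58 and 1.57, were just below it and also in the background range. The difference of 0.39 ± 0.30 (95% interval -0.26 to 1.05) was 0.06 without denervated array 2 and -0.06 ± 0.07 without denervated arrays 2 and 3. The other 2 probe sets of Sox10 had differences of -0.02 and -0.05 and means of 1.53 and 0.65, without a high value on array 2.

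Pou3f1, the POU factor of the promyelinating stage, had 0.99, 3.86, 2.14, 0.87 and 0.97 in the denervated incisors against 0.78, 0.82, 0.92, 0.83 and 0.77 in the contralateral ones. Mice 2 and 3 held the 2 high values, and the remaining 8 arrays were all below 1, in the background range. Since the contralateral values cannot be told from background, the size of the fitted difference, 0.94 ± 0.49 (95% interval -0.13 to 2.02), does not measure a fold change. It was 0.12 ± 0.07 without denervated arrays 2 and 3. It was higher in 5 of 5 mice, by 0.04 in mouse 4 and 3.04 in mouse 2. Its dimmer probe set was also highest on denervated array 2 (1.57), with a difference of 0.14. That probe set was lower on the denervated side in mouse 1 (0.83 against 0.91) and mouse 5 (0.92 against 1.15), so it was not higher in every mouse.

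Egr2, the zinc finger factor that switches on myelin genes, had 1.63, 2.73, 1.78, 1.39 and 1.36 in the denervated incisors and 1.39, 1.44, 1.44, 1.20 and 1.33 in the contralateral ones. Denervated arrays 1, 2 and 3 were above every contralateral array. By the brightest probe sets it was higher in 5 of 5 mice, as were 6.58% of all genes and 4 of the 10 genes here (Fabp7, Egr2, Pou3f1 and Cdh19). The difference was 0.42 ± 0.22 (95% interval -0.07 to 0.91, against 0.02 to 0.82 in the blocked fit), and 0.10 ± 0.09 without denervated arrays 2 and 3. Its second probe set had 2.80 on denervated array 2, again the highest of 10, and a difference of 0.37. That probe set was lower on the denervated side in mouse 1 (1.21 against 1.31) and mouse 4 (1.07 against 1.59), so it was not higher in every mouse.

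Foxd3, a factor of the neural crest and of early glial precursors, stayed near background on all arrays. It had 1.10, 1.66, 1.06, 0.99 and 0.99 in the denervated and 0.91, 0.93, 1.21, 1.14 and 1.06 in the contralateral incisors. Only denervated array 2 lay above the contralateral range, and the difference of 0.11 ± 0.13 was -0.02 without that array. Sox2, a factor of immature and repair Schwann cells and of the dental epithelium, had 3.69, 3.80, 3.24, 3.74 and 4.13 in the denervated and 3.54, 2.67, 3.47, 3.60 and 4.07 in the contralateral incisors. The groups overlapped, and both incisors of mouse 5 held the 2 highest values. Its difference was 0.25 ± 0.23 (95% interval -0.26 to 0.77). It was 0.05 without contralateral array 2, whose value was the lowest of the 10, and in mouse 3 it was -0.23. In the epithelial list, denervated array 3 had the lowest mean level, as given below; its part in Sox2 was not tested.

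The receptors had no separation between groups. Ngfr, the low-affinity receptor for nerve growth factor and a marker of immature Schwann cells, had 4.43, 5.39, 4.52, 4.35 and 4.34 in the denervated and 4.66, 4.56, 3.82, 4.34 and 4.09 in the contralateral incisors. Denervated array 2 alone was above the contralateral range. The difference was 0.31 ± 0.22 (95% interval -0.17 to 0.79), 0.11 without denervated array 2, and positive in 4 of 5 mice. Its other 2 probe sets, with means of 1.31 and 0.63, differed by 0.09 and -0.08.

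Erbb3, which binds neuregulin and signals together with ERBB2, had 3.07, 5.00, 3.28, 2.95 and 2.17 in the denervated and 3.22, 2.67, 2.90, 3.42 and 2.53 in the contralateral incisors. Denervated array 2 was the highest of the 10 by 1.58 log2 units, and denervated array 5 the lowest. Its difference of 0.35 ± 0.42 (95% interval -0.58 to 1.28) turned to -0.08 without denervated array 2, and it was higher in 2 of 5 mice. The second probe set, at a mean of 0.74, had 0.61 on that array and a difference of -0.02.

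Of the lineage markers, Cdh19, a cadherin of Schwann cell precursors and later Schwann cells, had 3.09, 5.24, 4.02, 1.88 and 2.16 in the denervated and 3.06, 2.70, 2.29, 1.32 and 1.56 in the contralateral incisors. It was higher in 5 of 5 mice, by 0.03 in mouse 1 and 2.55 in mouse 2, and mice 4 and 5 were low on both sides. The values of mice 4 and 5 lay near or below 2, so their differences have no certain size. A single probe set measures Cdh19, so no second one could serve as a check. The difference was 1.09 ± 0.60 without the mouse in the fit (95% interval -0.22 to 2.41) and 1.09 ± 0.33 with it (0.32 to 1.87, adjusted p 0.428), and rank 12 among all genes. Without denervated arrays 2 and 3 it was 0.19 ± 0.41.

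S100b, a calcium-binding protein of glia, had 1.07, 4.10, 2.77, 0.90 and 0.98 in the denervated and 2.15, 1.11, 0.87, 1.30 and 1.30 in the contralateral incisors. Mice 2 and 3 were higher on the denervated side by 2.99 and 1.90, and mice 1, 4 and 5 lower, by -1.08, -0.40 and -0.31. The difference over all arrays was 0.62 ± 0.57 (95% interval -0.64 to 1.88) and -0.36 ± 0.24 without denervated arrays 2 and 3. The second probe set followed the same arrays, with 2.20 and 1.94 on denervated arrays 2 and 3 and at most 0.80 on every other.

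**Figure D2:**
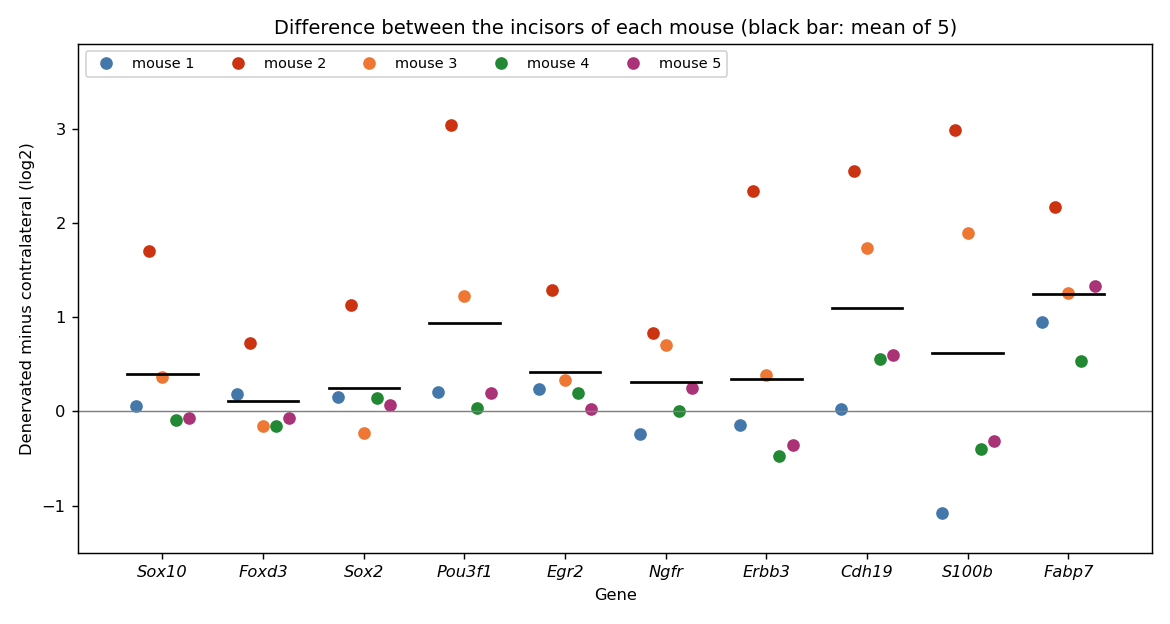
Difference in log2 intensity between the denervated and the contralateral incisor of each mouse (vertical axis) for the 10 genes (horizontal axis), with a black bar at the mean of 5 mice. In mouse 2 all 10 genes lie above 0, from 0.73 to 3.04, while for mice 1, 4 and 5 the only difference above 1 is that of Fabp7 in mouse 5, at 1.33.

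Mouse by mouse, all 10 genes were higher on the denervated side in mouse 2, with a median difference of 1.94, and 8 of them by at least 1 log2 unit, as were 1.77% of all genes. In mouse 3, 8 of the 10 were higher, with a median of 0.54 and 4 (Fabp7, Pou3f1, Cdh19 and S100b) by at least 1, against 1.52% of all genes. In mice 1, 4 and 5 the medians were 0.11, 0.02 and 0.05, with 7, 6 and 6 genes higher. The share of all genes higher was not computed mouse by mouse, so these counts of higher genes have no background of their own. By group means it was 55.8%, and 6 or 7 of the 10 is near that share. Differences of at least 1 were found in 0, 0 and 1 of the 10 genes there, against 0.022%, 0.132% and 0.275% of all genes. The median difference of all genes was -0.02, 0.05, 0.07, 0.01 and -0.01 in mice 1 to 5. Mouse 2 had the highest difference of the 5 mice in all 10 genes. In Fabp7 and Sox2 its contralateral array was the lowest of the 10 arrays (1.78 and 2.67), while its denervated array was not the highest. Fabp7 was the only one of the 10 genes with a difference of at least 0.53 in every mouse.

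**Figure D3:**
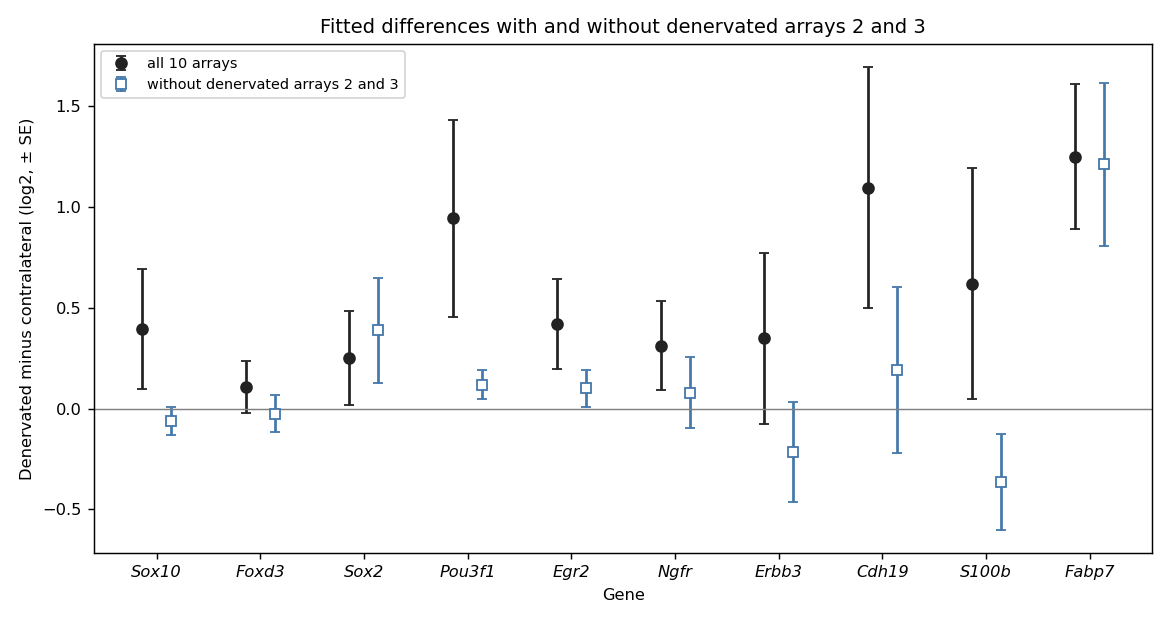
Fitted difference, denervated minus contralateral (vertical axis, log2, bars are standard errors), of each gene from all 10 arrays (filled circles) and without denervated arrays 2 and 3 (open squares). Fabp7 has 1.25 and 1.21, Pou3f1 has 0.94 and 0.12, and Sox10, Foxd3, Erbb3 and S100b lie below 0 in the smaller set. The smaller set keeps the low contralateral Fabp7 value of mouse 2.

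The 8 genes that were highest on denervated array 2 were then correlated across the 10 arrays, which come from 5 mice. They were grouped by that shared extreme. High r among them, and lower r with Fabp7 and Sox2, was therefore largely set by the grouping. No r over all genes was computed beside it. Pearson's r for the 28 pairs among Sox10, Foxd3, Pou3f1, Egr2, Ngfr, Erbb3, Cdh19 and S100b lay between 0.54 and 0.98, with a median of 0.85. Fabp7 with these 8 had r between -0.03 and 0.28, and Sox2 between -0.19 and 0.23. Without denervated arrays 2 and 3 the median over the 28 pairs was 0.08, within -0.79 to 0.80, so the common pattern of the 8 rested on those arrays. The closest pair over all arrays was Sox10 with Pou3f1, with r = 0.98, and 0.02 without both arrays. Egr2 and S100b were each most like Pou3f1 (r = 0.97 and 0.92). Erbb3 and Foxd3 were most like Sox10 (0.89 and 0.90), Cdh19 was most like Egr2 (0.91), and Ngfr like S100b (0.84). Fabp7 and Sox2 were each other's nearest, with r = 0.55, or 0.82 without denervated arrays 2 and 3.

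The genes outside the set whose values were most like the mean of the 10, after centring each gene, were Sema3g, a class 3 semaphorin (r = 0.99), Tead1, a partner of YAP and TAZ (0.97), Rtkn (0.97), Scn7a, a sodium channel gene of nonmyelinating Schwann cells (0.97), and Cadm4, an adhesion protein of myelinating Schwann cells (0.97). Sipa1l1, Snord104, Eln, which encodes elastin, Cryab, a small heat shock protein, and Pmp22, a myelin protein gene, followed at 0.96. All were chosen by r over the 10 arrays, with no test. Sema3g had 4.98 on denervated array 2, 4.19 on denervated array 3 and at most 3.55 on the others, and kept r = 0.90 without those arrays. Scn7a had 3.19 and 1.97 on them and at most 1.19 elsewhere, and its r was 0.39 without them. For Fabp7 alone, a look added after its pattern was seen, the nearest genes were Aspdh, Wdr77, Ust, Icmt and Pgf, the gene of placental growth factor, with r of 0.92 to 0.95 and differences of 0.16 to 0.24.

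Other genes of the pathway came from lists chosen with earlier results of these data known, and 0 of their members passed in either direction, with or without the mouse as a block. Beside the counts of higher genes in these and the later lists stands the share of all genes. It was 55.8%, or 49.1% without denervated arrays 2 and 3. Of the 14 myelin genes measured, 10 were higher and 4 lower, with a median of 0.32; without denervated arrays 2 and 3, 5 were higher and the median was -0.05. Cnp, an enzyme of myelin membranes, differed by 0.53 ± 0.31, Cadm4 by 0.87 ± 0.51 and Pmp22 by 0.60 ± 0.37, and Mbp, the myelin basic protein gene, by -0.23 ± 0.18. Without denervated array 2 the first 3 differed by 0.21, 0.28 and 0.20, and without denervated arrays 2 and 3 by 0.05, 0.15 and 0.06. The mean log2 level of the list was 4.39 on denervated array 2 and 3.04 on denervated array 3, against 2.60 to 2.77 on the other denervated arrays and 2.68 to 2.86 on the contralateral ones. The list thus had its 2 highest levels on the arrays that were high in Sox10, Pou3f1 and Egr2.

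Further genes of immature, nonmyelinating or repair Schwann cells had 11 of 18 higher, with a median of 0.05; without denervated arrays 2 and 3 these were 9 of 18 and -0.01. The mean level of this list was 3.93 and 3.46 on those 2 arrays, 3.24 to 3.33 on the other denervated arrays and 3.19 to 3.39 on the contralateral ones. Mcam, an adhesion molecule also of vessel walls, differed by 0.51 ± 0.18 (0.22 without denervated arrays 2 and 3), the endothelin receptor gene Ednrb by 0.65 ± 0.33 (0.36 without denervated array 2 and 0.23 without both) and Gfap, a glial filament gene at background, by -0.15 ± 0.08. Of 24 further regulators 15 were higher, with a median of 0.06: Id2, an inhibitor of basic helix-loop-helix factors, differed by 0.22 ± 0.08, Sox9 by 0.19 ± 0.07 and Nfatc4, a calcineurin-dependent factor, by 0.26 ± 0.14 (0.04 without denervated arrays 2 and 3). Jun, which drives the repair state of Schwann cells, differed by -0.07 ± 0.13.

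Of the 12 genes of neuregulin and ErbB signalling, 7 were higher, with a median of 0.05. The ligand gene Nrg1 differed by 0.06 ± 0.08, Nrg3 by -0.09 ± 0.08, the coreceptor gene Erbb2 by 0.10 ± 0.12, Egfr by 0.27 ± 0.22 and the adaptor gene Shc1 by 0.17 ± 0.10. In the list around Ngfr, 6 of 10 were higher, with a median of 0.03; without denervated arrays 2 and 3 these were 2 of 10 and -0.05. Sort1, which encodes the coreceptor sortilin, differed by -0.44 ± 0.16, the neurotrophin receptor genes Ntrk2 by -0.18 ± 0.10 and Ntrk3 by 0.53 ± 0.32. Without denervated arrays 2 and 3 the differences of Erbb2, Shc1 and Ntrk3 were -0.05, 0.05 and 0.25. The named ligand, receptor and adaptor genes thus lay between -0.44 and 0.53, on both sides of 0.

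Of 16 axon and sensory neuron genes 5 were higher and 11 lower, with a median of -0.07, and 11 had a mean below 2. The tubulin gene Tubb3 differed by -0.31 ± 0.28 (0.07 without denervated arrays 2 and 3), Prph, which encodes peripherin, by -0.22 ± 0.11 (-0.13 without them), the sodium channel gene Scn10a by -0.16 ± 0.08 and Syt1, a synaptic vesicle gene, by 0.14 ± 0.06. The mean level of the axon list was 2.03 to 2.39 on the denervated and 2.15 to 2.46 on the contralateral arrays. Arrays 2 and 3 of the denervated group were at 2.22 and 2.18, inside both ranges.

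Markers of 3 other cell types were also high on the arrays that were high in Schwann cell genes. The mean level of 10 pericyte and smooth muscle genes was 7.06 and 6.67 on denervated arrays 2 and 3, 6.02 to 6.18 on the other denervated arrays and 5.79 to 6.12 on the contralateral ones, and all 10 had a higher mean in the denervated group, or 6 without those 2 arrays. Of 10 endothelial genes all 10 were higher, with levels of 5.39 and 5.30 on denervated arrays 2 and 3, 4.55 to 4.82 on the other denervated arrays and 4.68 to 4.89 on the contralateral ones. Without those 2 arrays 3 of the 10 endothelial genes were higher, with a median difference of -0.11. All 13 macrophage genes were higher, with 6.53 and 6.52 on those 2 arrays, 5.85 to 5.98 on the other denervated arrays and 5.53 to 5.84 on the contralateral ones; 11 were higher without those 2 arrays. Of these 33 genes 1, in the macrophage list, was below 2 on every array. The part of these cell types in the Schwann cell values was not tested.

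Of 10 dental epithelium genes 0 were higher, with a median difference of -0.41. Without denervated arrays 2 and 3, 5 of the 10 were higher and the median was -0.03. The list's mean level was 7.01 on denervated array 3, 9.27 to 9.54 on the other denervated arrays and 9.42 to 9.71 on the contralateral ones. Of these genes 0 had a mean below 2, so epithelial transcripts were measured in these samples labelled as mesenchyme. Melanocytes, which share Sox10 and Erbb3 with Schwann cells, had 6 of 9 marker genes below 2 on every array. The mean level of the melanocyte list was 2.01 to 2.11 on the denervated and 1.94 to 2.09 on the contralateral arrays. Skeletal muscle genes, 8 of 10 below 2 on every array, had 1.11 to 1.23 in the denervated and 1.11 to 1.35 in the contralateral group, and adipocyte genes, 4 of 6 below 2 on every array, 1.56 to 1.70 against 1.29 to 1.52. Osteocyte and bone genes had 4.90 on denervated array 2, 5.29 to 5.60 on the other denervated arrays and 5.42 to 5.64 on the contralateral ones, with 2 of 7 higher. The 14 dental mesenchyme and odontoblast genes, which check the labelled tissue but not its purity, had 7.61 to 7.87 in the denervated group. In the contralateral group they had 7.49 to 7.65, and 1 of them was below 2 on every array.

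**Figure D4:**
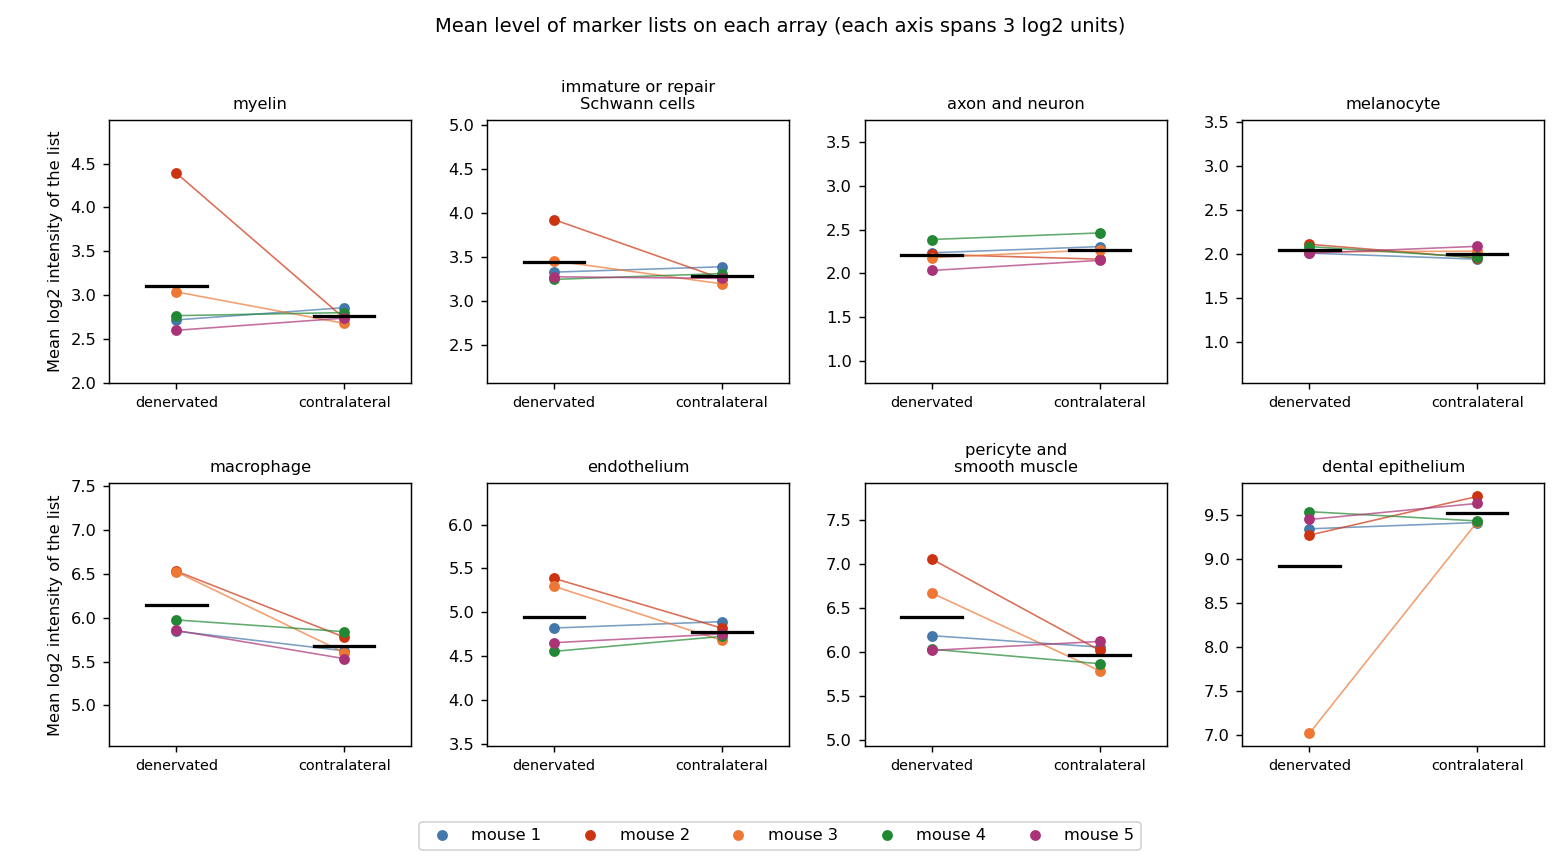
Mean log2 intensity (vertical axis) of 8 marker lists on the 5 denervated arrays (left in each panel) and the 5 contralateral arrays (right), with lines joining the incisors of 1 mouse and black bars at group means. Denervated arrays 2 and 3 are highest in the myelin (4.39 and 3.04), macrophage, endothelial and smooth muscle panels, denervated array 3 is lowest in the epithelial panel (7.01), and the melanocyte levels stay within 1.94 to 2.11 and the axon levels within 2.03 to 2.46.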

How the data were processed

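The authors deposited log2 intensities, 1 per probe set, for 10 biotin-labelled expression arrays. RMA, which corrects background, normalizes arrays and summarizes probes, is named without a version in the submitters' processing notes; the log2 scale was read from the values (-0.16 to 13.2). Medians near 1.5 and values below 0 are low for this method; the variant used is not given in the sources used here, and it can alter how far 2 dim values lie apart. They were used as deposited. Probe sets naming 1 symbol in the supplied platform annotation (34945 of 45037 after removal of 64 control probe sets) gave 18193 genes, each represented by its brightest probe set.

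Groups were compared with limma 3.58.1 in R 4.3.3 (lmFit, eBayes; Benjamini-Hochberg over 18193 genes, threshold 0.05), without the mouse, and with it as a block. Arrays of equal number were taken as 1 mouse: the design text says both incisors of 5 mice were used. The correlation of deviations from group means was 0.18 to 0.57 for the 5 pairs of equal number, against -0.41 to 0.22 for the other 20. Of the 5 denervated arrays, 4 correlated best with the contralateral array of their own number. Deviations cancel out within a group, so these ranges are not independent of each other. No label says that arrays of a group were processed separately, so p-values may measure partly technical spread. The number of arrays limits the precision. Without the mouse, the median standard error over all genes was 0.10. The 10 genes described had larger ones, from 0.13 (Foxd3) to 0.60 (Cdh19).

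Members and lists were chosen with earlier results of these data known. Named genes are the members, the 3 genes of smallest p in each Schwann cell, signalling and axon list, and a fixed set; for the other cell type lists only counts and mean levels are given. Some genes on the lists and in the fixed set are not analysed here. The fits were tested on simulated data. Alternatives covered the block, probe set choice, scaling, low-value filters, variance moderation and left-out arrays or mice.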

Additional observations from a re-analysis of the deposited data

Results flagged for a closer look

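In 50 groups of 5 arrays (each gene and each list level in either group) 6 arrays stood apart by Dixon's criterion, the gap to the nearest array over the whole range exceeding 0.71; chance gives about 1 in 20 groups. Denervated array 2 was highest for Ngfr, with 5.39 against 4.34 to 4.52 on the other denervated arrays. It was also highest for Foxd3, with 1.66 against 0.99 to 1.10, and for the mean level of the myelin list, with 4.39 against 2.60 to 3.04. Contralateral array 2 was lowest for Fabp7, with 1.78 against 3.33 to 3.81 on the other contralateral arrays. Denervated array 3 was lowest for the mean level of the dental epithelium list, with 7.01 against 9.27 to 9.54, and highest for that of the dental mesenchyme and odontoblast list, with 7.87 against 7.61 to 7.68.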

How the results depend on the processing

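Over 25 alternatives 236 differences of the 10 genes were recomputed, of which 224 kept their direction and 0 passed the threshold (adjusted p 0.252 to 0.993). Part of the 224 could not have turned. The replicate block on all arrays, the variance moderation, the low-mean filters and the fit of every probe set leave a gene's difference unchanged. So does the mean of all probe sets where a gene has a single one. Leaving out 1 array gave Erbb3 between -0.078 and 0.63 and Foxd3 between -0.016 and 0.15, below 0 only without denervated array 2. The blocked fit without mouse 2 gave Erbb3 -0.149 and Foxd3 -0.046. Omitting denervated arrays 2 and 3 gave Sox10 -0.062, S100b -0.362, Erbb3 -0.216 and Foxd3 -0.026. The blocked fit omitting both those mice gave Sox10 -0.033, S100b -0.598, Erbb3 -0.326 and Foxd3 -0.012. The last 2 settings, chosen after seeing the data, had 6 of the 10 genes higher, against 49.1% and 48.0% of all genes. Leaving out 1 array, or 1 mouse with the replicate block, had 8 to 10 genes higher, 8 where denervated array 2 or mouse 2 was out. Of all genes, 53.4% to 57.4% were higher there. The filters on low means kept 1 of the 10 genes (mean of at least 4) and 5 (mean of at least 2). All of these were higher, as in the main fit, since a filter does not alter a difference. Of all genes kept by the filters, 63.9% (mean of at least 4) and 65.4% (mean of at least 2) were higher. The replicate block changed no call (0 of the 10 genes and 0 of all). Without mouse 4 the blocked fit called 1 gene of all, Fcna (adjusted p 0.0270), which is not among the 10 and is named after its value was seen; every other setting called 0 genes.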
